A study of Rattus norvegicus with 12 samples.

Results

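In the sperm of male rats 119 microRNA (miRNA) assays were detected that were not detected in the mammary glands of daughters, out of 2 cards with 378 assays each. They are called the sperm set here and were chosen by their threshold cycles. An assay entered the set when its threshold cycle was under 35 in at least 3 of the 6 sperm samples and in fewer than 3 of the 6 mammary gland samples. The threshold cycle (Ct) is reached when the fluorescence of a well crosses a fixed level during PCR, and 1 cycle earlier means about 2 times more template. A well that never crossed was deposited as 40, the last cycle. The set is 24.3% of the 490 assays that met the sperm part of the rule, and the remaining 371, which also met the limit in at least 3 mammary glands, are called the shared assays. Since the Ct values of both tissues chose the members, the difference between the tissues is described and was not tested.

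Sperm was sampled from male Sprague Dawley rats, 3 given lard and 3 given corn oil, and mammary glands were taken at 50 days of age from 3 daughters of each paternal diet. Both paternal diets were high in fat, one based on lard and the other on corn oil, and were fed before and during puberty. The males were then switched to chow and mated, and sperm was taken once the females were pregnant. Daughters and their pregnant mothers had chow alone. Sperm came from the caudal epididymis and vas deferens and were washed in a buffer that lyses somatic cells. For the mammary gland the labels name its cells and the methods its tissue. The samples are named by animal: rats 9, 10 and 11 (lard), rats 18, 19 and 20 (corn oil), daughters 25.5, 29.1 and 31.2 (paternal lard) and daughters 41.6, 49.2 and 60.5 (paternal corn oil). The sample labels name single animals and the description of the series speaks of pooled RNA, so p-values measure the spread between these samples, which may be technical. Each sample filled both cards. Names of miRNAs are not paired with the well numbers in the files used here. The assays are therefore given by well number, without sequences, and marker miRNAs of sperm or mammary cells could not be checked.

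miRNAs are short RNAs that lower the translation and stability of the messenger RNAs to which they pair. Mature sperm are almost silent in transcription. Their small RNAs are left over from spermatogenesis or are taken up in the epididymis, and are carried into the egg at fertilization. The mammary gland at puberty is a different kind of sample, a branching epithelium within a fat pad with vessels and immune cells. In a mixed sample, fewer cells of a type and less RNA per cell cannot be told apart.

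The sperm set covered a wide range of Ct in sperm, but lay later than the shared assays. The median sperm Ct of its assays ran from 14.9 to 36.5, with a median of 29.0 and quartiles of 25.2 and 31.3. For the shared assays the median was 25.2, with quartiles of 22.6 and 28.7. Of the 119 assays, 3 had a median sperm Ct under 20, 24 lay from 20 to under 25, 46 from 25 to under 30, 42 from 30 to under 35 and 4 from 35 onwards. The set thus held few early assays, 3 of 119 under 20 against 47 of the 371 shared assays. Assays differ in primer efficiency and preamplification, so that an order of Ct between assays is only an approximate order of abundance.

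**Figure D1:**
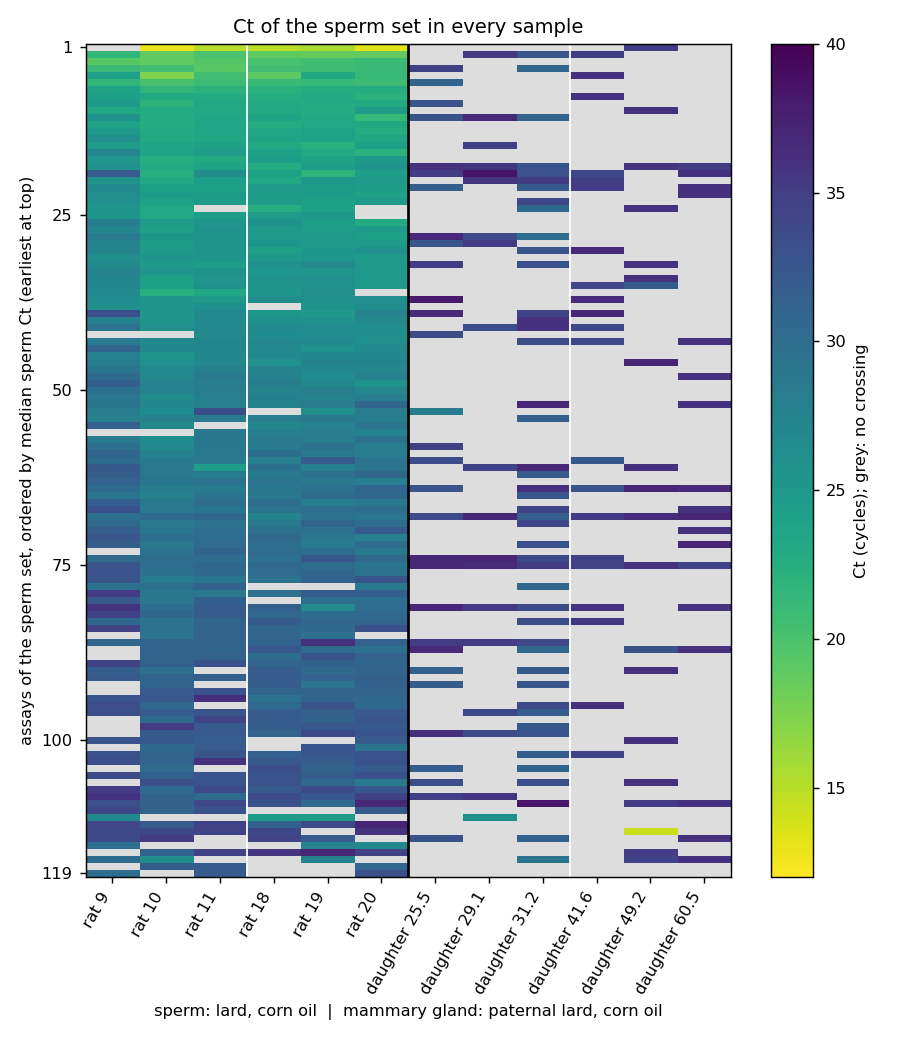
Ct (colour, in cycles) of the 119 assays of the sperm set in each of the 12 samples, with assays as lines ordered by median sperm Ct and grey for wells that did not cross. The 6 sperm columns on the left are nearly filled, while the 6 mammary gland columns hold 153 crossings in 714 wells, most of them late.

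The 6 earliest assays of the set were wells 126, 621, 364, 266, 344 and 598. Well 126 had a Ct of 12.8 in rat 10, 15.0 in rat 11, 14.9 in rat 18, 15.6 in rat 19 and 13.4 in rat 20, and did not cross in rat 9. In the mammary gland it crossed in daughter 49.2 alone, at 34.8. It was therefore the earliest assay of the set in 5 rats and without signal in the remaining one. Well 621 ran from 18.6 in rat 19 to 21.5 in rat 9, with a median of 18.9, and crossed in daughters 29.1 (35.4), 31.2 (32.6) and 41.6 (34.8). Well 266 ran from 19.1 in rat 11 to 21.2 in rat 20, with crossings in daughters 25.5 (34.6) and 31.2 (30.8). Both were thus seen in the mammary gland as well, at least 9 cycles later than in any sperm sample. The Ct of well 344 ranged from 17.4 in rat 10 to 24.2 in rat 9, while that of well 598 stayed between 20.2 and 21.7.

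Well 364 was the earliest assay without a crossing in any mammary gland. Its Ct was 19.2 in rat 9, 19.0 in rat 10, 19.4 in rat 11, 20.0 in rat 18, 20.5 in rat 19 and 20.9 in rat 20. The last cycle came 19.1 cycles after its latest sperm Ct. The next assays of this kind were wells 710, 499 and 326, with sperm Ct of 21.5 to 23.8, 22.6 to 23.8 and 22.7 to 24.98. All 4 crossed in every sperm sample, and their Ct spanned from 1.21 cycles in well 499 to 2.31 in well 326. Altogether 50 assays of the set (42.0%) did not cross in any of the 6 mammary glands, of which 29 had a Ct under 35 in all 6 sperm samples and 10 had a median sperm Ct under 25.

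**Figure D2:**
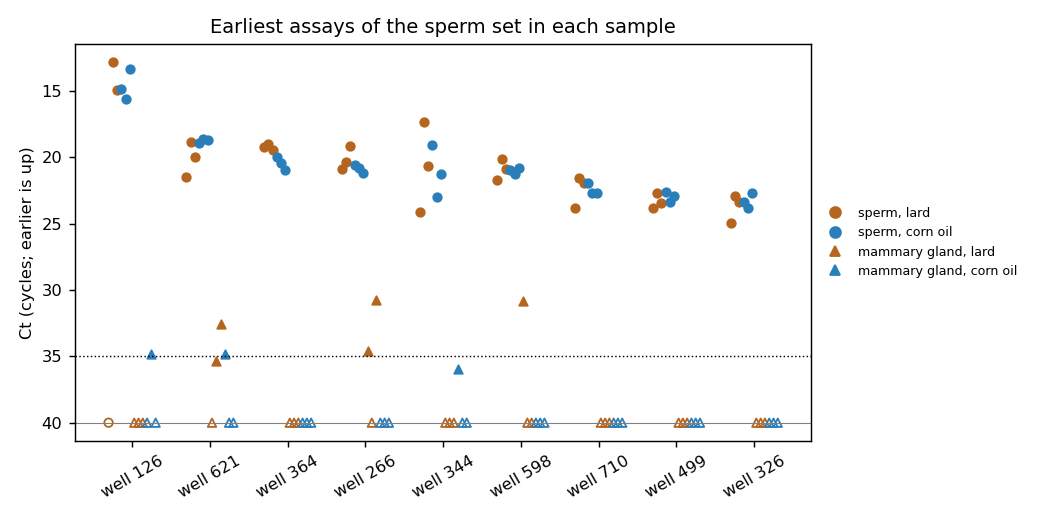
Ct in cycles, earlier upwards, of the 6 earliest assays of the sperm set and of the earliest that never crossed in a mammary gland, with sperm as circles, mammary glands as triangles, open symbols for wells at 40 and a dotted line at 35. Sperm values lie between 12.8 and 24.98 except rat 9 in well 126, and the few mammary crossings lie at 30.8 or later.

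In the mammary glands 69 of the 119 assays gave at least 1 crossing. By the rule no assay was under 35 in more than 2 glands, and 63 were under 35 in none, 30 in 1 and 26 in 2. Of the 153 crossings, 82 were under 35 and 71 at 35 or later, with a median Ct of 34.8. The crossings under 35 were spread unevenly over the daughters, with 20 in daughter 25.5, 7 in 29.1, 37 in 31.2, 11 in 41.6, 6 in 49.2 and 1 in 60.5. The 2 paternal diets overlapped in these numbers. Only 5 crossings were earlier than 30, each of them in a single daughter. Besides wells 376 and 172, described with the uneven assays, they were those of well 132 (29.2 in daughter 31.2), well 723 (28.2 in daughter 25.5) and well 728 (29.9 in daughter 31.2). These 5 were named after their values were seen. Assays under 35 in fewer than 3 mammary glands were not tested for paternal diet there.

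The number of the set seen in a daughter moved with the Ct of her other assays. Over the 291 shared assays that crossed in all 12 samples, the median Ct was 25.8 in daughter 31.2, 27.0 in 25.5, 27.4 in 41.6, 27.7 in 49.2, 28.1 in 29.1 and 29.0 in 60.5. Daughter 31.2, the earliest, had the most assays of the set under 35, and daughter 60.5, the latest, had the fewest. In sperm the same median ran from 24.5 to 26.2. The part of overall signal in the membership of single assays was not tested.

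**Figure D3:**
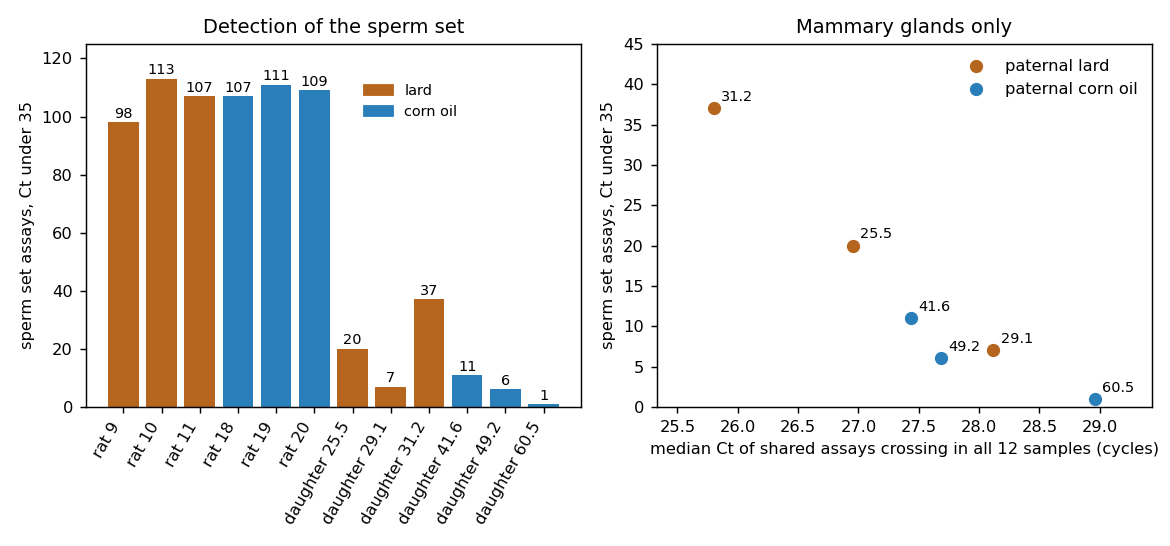
Left, number of the 119 assays with a Ct under 35 in each sample, as bars. Right, for the 6 mammary glands, the same number against the median Ct in cycles of the 291 shared assays that crossed in all 12 samples, falling from 37 in daughter 31.2 to 1 in daughter 60.5.

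At the limits of the rule the assays were close to each other. On the sperm side, the third lowest Ct was 34.6 in well 156, just inside, and 35.996 in well 532, just outside. On the mammary gland side it was 35.002 in well 359, just inside, and 34.969 in well 536, just outside. The sperm values of well 359 ran from 29.3 to 32.7 and those of well 536 from 28.1 to 30.02.

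The sperm set was more frequent on the second card. The first card held 48 of its assays and the second 71, which was 17.0% of the 283 assays of the first card that met the sperm limit and 34.3% of the 207 of the second. The shared assays were divided the other way, 235 and 136. On the first card the median of the set's sperm Ct was 29.2 and on the second 28.6, whereas the shared assays had 24.6 and 26.7. Of the set on the first card, 56.2% never crossed in a mammary gland, against 32.4% on the second. Card was not used by the rule, and no test of these shares was made.

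The set also lay unevenly within the cards. The 4 wells that hold one control assay form a square when a card is laid out in rows of 24 wells. In that layout rows 1 to 8 of the first card held 15 of the set among 163 assays that met the sperm limit (9.20%), and rows 9 to 16 held 33 of 120 (27.5%). On the second card the numbers were 24 of 108 (22.2%) and 47 of 99 (47.5%). There were 22 runs of neighbouring members with 57 assays, of which 7 were runs of at least 3. The longest were wells 300 to 304 and 323 to 327 on the first card and wells 596 to 600 on the second. The first 2 of these adjoin, and 9 of their 10 assays had no crossing in any mammary gland, the exception being well 324 with 35.98 in daughter 60.5. Wells 596 to 600 were earlier, with median sperm Ct of 20.9 to 26.0, and 1 of the 5 had no mammary crossing.

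**Figure D4:**
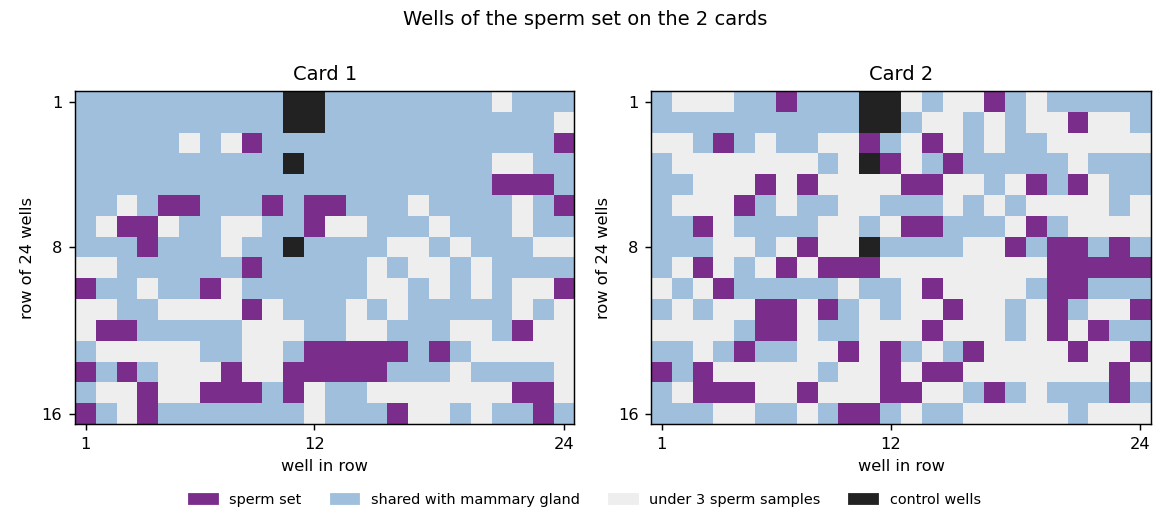
The 2 cards drawn as 16 rows of 24 wells, with the sperm set (119 wells), the shared assays (371), assays under 35 in fewer than 3 sperm samples (266) and control wells in separate colours. The sperm set is sparse in the first rows of card 1, with 15 of its 48 assays there in rows 1 to 8.

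Most of the set was seen in every rat. A Ct under 35 was found in all 6 sperm samples for 75 assays (63.0%), in 5 for 26, in 4 for 11 and in 3 for 7. Of the shared assays 87.6% were under 35 in all 6. Rat 9 had 98 assays of the set under 35, whereas the other rats had 107 to 113. It was also the rat with most wells at 40, 17 of the 119, and alone at 40 for 10 assays. Among the 84 assays of the set that crossed in all 6 rats, rat 9 had the latest Ct for 64 (76.2%), as it had for 69.7% of the 333 such shared assays. The lateness of rat 9 was thus seen inside the set and outside it. Its median Ct over the 84 was 29.4, where the other rats had 26.7 to 27.8.

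Replicates of a diet differed more in the sperm set than in the shared assays. For assays crossing in all 6 rats, the within-diet standard deviation of Ct had a median of 1.13 cycles in the set and 0.884 in the shared assays. At a median sperm Ct from 25 to under 30 these medians were 1.12 (39 assays) and 0.863 (133 assays), and from 30 to under 35 they were 1.61 (21 assays) and 1.11 (32 assays). Under 25 they were 0.956 (24 assays) and 0.869 (167 assays). By the range of Ct over all 6 rats, which is another measure than the within-diet standard deviation, the narrowest of the members that crossed in every rat were well 572, with sperm Ct of 27.8 to 28.9, and well 499. The widest range among these was that of well 471, from 21.7 in rat 19 to 31.9 in rat 9, followed by well 662, from 26.8 in rat 19 to 35.8 in rat 9.

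A further group of assays was either early or absent. In 35 assays of the set at least 1 rat was at 40, and in 15 of these (12.6% of the set) the median of the crossing samples was under 30. Of the shared assays 28 (7.55%) had this pattern. Besides well 126, an example is well 376, with 27.0 in rat 9, 24.6 in rat 18 and 24.7 in rat 19, and no crossing in rats 10, 11 and 20. In the mammary gland it crossed in daughter 29.1 alone, at 26.0. The wells with and without signal did not follow the diets here. Well 172 was late in sperm, at 33.8 to 34.3 in 4 rats, 36.01 in rat 20 and 40 in rat 19, but had a Ct of 14.3 in daughter 49.2 and none in the other 5 daughters. Well 494 crossed at 22.6 to 25.5 in rats 9, 10, 18 and 19 and did not cross in rats 11 and 20. Well 300 crossed at 23.3 to 25.5 in every rat except rat 20. Its neighbour well 301 had a Ct of 29.98 in rat 9, 27.6 in rat 19 and 26.9 in rat 20, and none in the other 3 rats. The rat without signal thus changed from assay to assay. These wells were picked after their values were seen.

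The effect of the paternal diet in sperm was measured on log2 relative expression, in which the Ct of an assay is subtracted from the mean Ct of 2 reference wells on its card in that sample. The rule used detection over both diets together and not the diet labels. As to detection, 78 of the 119 assays were under 35 in as many lard as corn oil samples, 16 in more lard and 25 in more corn oil samples, and none was under 35 in one diet alone. This split was not made for the shared assays. Of those, 350, 367 and 352 were under 35 in rats 9, 10 and 11, and 363, 361 and 360 in rats 18, 19 and 20. In limma, 20 assays of the set (16.8%) were lower with corn oil than with lard at an unadjusted p at or below 0.05, where 11.2% of all 490 tested assays were. Of these 20, 10 were on each card, 15 crossed in all 6 rats and 5 were at 40 in a corn oil sample. The 15 had differences from -2.52 to -4.21, and 14 of them had a later mean Ct with corn oil before any reference was used, by at most 1.80 cycles. Of the 32 shared assays called lower that crossed in all 6 rats, 31 did. Each difference holds the shift of the reference wells of its card, -2.68 on card 1 and -2.41 on card 2. A larger decrease than this shift means a later Ct with corn oil by construction, so both counts follow largely from the calls. The 2 that were higher compare with 0.408% of all tested. After Benjamini-Hochberg adjustment over the 490 assays, 0 had an adjusted p under 0.1 (0.0% of all tested), and the smallest adjusted p in the set was 0.234 in limma. The shares of lower calls in the set and in all tested assays depended on the fit. With trend and robust they were nearly equal, 27 of the 119 against 109 of the 490. In one fit over all 12 samples the set had the smaller share, 27 of the 119 against 198 of the 490. With undetermined wells missing 7 of the set had an adjusted p under 0.1, against 25 of the 490, and 42 were lower at the unadjusted limit, against 170. With the test kept to assays under 35 in all 6 sperm samples, 19 of 75 passed, against 90 of 400, and 33 were lower, against 174. The count of lower assays was 9 without rat 10, 42 without rat 11, 11 without rat 19 and 9 without rat 20, where over all 490 tested assays it was 27, 175, 22 and 20. The count of higher assays was 0 without rat 9, 18, 19 or 20, as it was over all tested, and 3 without rat 10, where it was 6 over all tested. At an adjusted p under 0.1 there were 3 lower assays without rat 20, which were all of those over the 490.

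Differences of the set lay mostly below 0 on this scale, as they did for the other assays. The median log2 difference (corn oil minus lard) was -2.03, with quartiles of -2.98 and -1.01, and was -2.19 over all tested assays. Without rat 9 the medians were -1.58 and -1.31. It was below 0 for 82.4% of the set and for 91.0% of all tested assays. For 52 assays of the set (43.7%) all corn oil samples were lower than all lard samples, against 42.9% of all tested. The reference wells moved with the diets too. Their mean Ct was earlier with corn oil, with differences of -2.68 cycles on card 1 and -2.41 on card 2 (-1.28 and -1.20 without rat 9), and with no overlap between the diets (p = 0.1 for either card in a two-sided exact permutation test, which cannot give a smaller p with 3 against 3). By construction, the difference of every assay on a card contains the shift of its reference wells. Whether the reference wells or the other assays changed with diet was not tested. On raw Ct, with the sign turned so that more template is positive, the median difference of the set was 0.46, and limma gave 1 lower and 3 higher at p at or below 0.05, where over all tested assays it gave 3 lower and 5 higher. There the diets did not overlap for 2 assays of the set later in corn oil (1.68%, against 2.86% of all tested). For 10 earlier in corn oil they did not overlap either (8.40%, against 4.08% of all tested). Among the shared assays the second number was 10 of 371 (2.70%). The 10 included wells 304 and 323 of the adjoining runs, which were picked after their values were seen. Well 304 had 27.4, 25.4 and 25.6 in rats 9, 10 and 11, and 25.3, 25.4 and 25.02 in rats 18, 19 and 20. Well 323 had 32.6, 32.3 and 36.2 in rats 9, 10 and 11, and 29.6, 30.9 and 30.7 in rats 18, 19 and 20. In both, relative expression overlapped between the diets, with differences of -1.75 and 0.60. Their limma p-values were above 0.05.

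**Figure D5:**
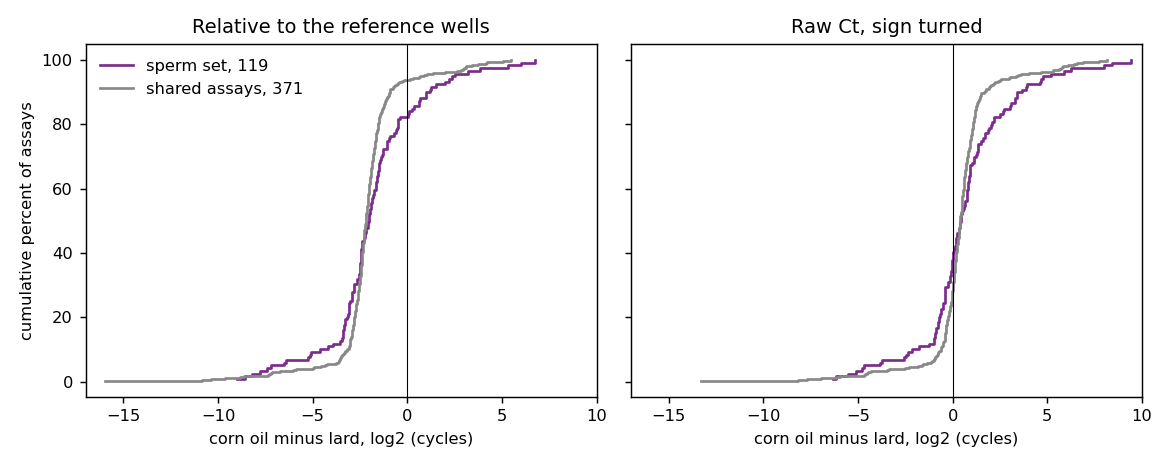
Cumulative percent of assays by their difference between the diets, corn oil minus lard on the log2 scale, for the sperm set (119 assays) and the shared assays (371), relative to the reference wells (left) and on raw Ct with the sign turned (right). The median of the set is -2.03 on the left and 0.46 on the right.

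The same well 364 that was never seen in the mammary gland was one of the 2 assays later in corn oil on raw Ct without overlap. The mean Ct was 19.2 ± 0.226 for lard and 20.5 ± 0.462 for corn oil (SD, n = 3 each). Its log2 relative expression was 5.97, 2.34 and 1.25 in rats 9, 10 and 11, and 0.57, -1.25 and -1.56 in rats 18, 19 and 20. The difference was -3.94 (standard error 1.46, limma adjusted p = 0.234). On raw Ct it was -1.25, and the unadjusted p was below 0.05 in both fits. It stayed below 0 under all 18 alternatives that gave a value, from -4.91 to -1.25, while its unadjusted p was above 0.05 without rat 19, without rat 20 and with the global mean as reference. Its size moved with the reference. Of all 490 tested assays, 14 (2.86%) were likewise later in corn oil on raw Ct without overlap.

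Well 575 was the other such assay, with the largest decrease among members that crossed in all 6 rats at p at or below 0.05. Its Ct was 30.8, 31.0 and 31.0 in rats 9, 10 and 11 and 31.1, 36.02 and 31.2 in rats 18, 19 and 20. Apart from rat 19 the samples were close to each other. The latest lard Ct was 31.04 (rat 11) and the earliest corn oil Ct 31.06 (rat 18). The lack of overlap thus rests on single wells whose technical error is unknown. The difference was -4.21 (standard error 1.75, limma adjusted p = 0.234) relative to the reference wells, and -2.59 without rat 19. The unadjusted p exceeded 0.05 in 7 of the 17 alternatives, among them raw Ct (-1.80) and the fits without rat 9 (-2.91) or rat 19.

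Both assays that were higher in corn oil at p at or below 0.05 were of the early or absent kind, and are named because they were the only ones past this limit. Well 340 did not cross in rats 9 and 10, and had a Ct of 26.8 in rat 11, 26.4 in rat 18, 26.2 in rat 19 and 26.0 in rat 20. Well 486 likewise did not cross in rats 9 and 10, and had 28.9 in rat 11, 27.9 in rat 18, 28.0 in rat 19 and 27.7 in rat 20. So the higher mean of the corn oil group came from 2 lard samples without signal, and the third lard sample was slightly later than the corn oil samples. Their differences were 6.72 (standard error 2.80) and 6.01 (standard error 2.49), with limma adjusted p of 0.234 for both, and they depend on the value of 40 given to wells without a crossing. With those wells missing they were -0.34 and -0.16. The unadjusted p was above 0.05 for both without rat 9, 10, 18, 19 or 20. Without rat 10 the differences of wells 340 and 486 were 3.99 and 3.56. Without rat 11, the lard sample with a signal, they were 10.26 and 9.09, and the unadjusted p was below 0.05 for both.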

How the data were processed

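miRNA levels were measured with TaqMan rodent miRNA cards in 12 samples. The authors deposited unnormalized Ct values in cycles, 1 for each well, measured after reverse transcription and preamplification. Baseline and threshold settings were not given in the sources used here. A second deposited table holds fold ratios from the authors' comparison of corn oil with lard and was not used.

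The 12 control wells were left out, which leaves 756 assays. geNorm on the 3 control assays of each card kept the pair of reference wells in sperm (wells 83 and 179, and 467 and 563) and removed the 4-well assay (stability value M of 2.04 and 2.00). Log2 relative expression was fitted with limma 3.58.1 in R 4.3.3 on the 6 sperm samples, two-sided, over the 490 assays that met the limit of 35 in at least 3 of them, and p-values were adjusted after Benjamini-Hochberg. Wells without a crossing were kept at 40. The fit was tested on simulated data. Single values were compared by an exact permutation test (scipy 1.17.1).

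The members, the rules for naming wells and the alternatives were chosen with earlier results of these data known. Named wells were the 6 earliest in sperm, the 4 earliest without mammary crossing, the largest non-overlapping differences at p at or below 0.05 among members crossing in all 6 sperm samples, those at the limits of the rule and those with the smallest and largest range. Others are said to be chosen after their values were seen. In all, 12 alternatives to the fit, 3 to the rule and leaving out single samples were tried. Ct values cover 1 well each, so the technical error of a well is unknown.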

Additional observations from a re-analysis of the deposited data

How the results depend on the processing

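The sperm set, 119 assays, numbered 152 with a Ct under 32 in place of 35 (103 of them the same), 97 with any crossing (94 the same) and 40 when all 6 sperm samples and no mammary gland had to be under 35. With 1 of the 12 samples left out it numbered 114 to 142. The 20 lower assays became 3 after quantile normalization, 2 with the global mean, 2 with only the 4-well assay as reference, 1 on raw Ct, 33 with only assays under 35 in all 6 sperm samples (75 of the set tested) and 42 with undetermined wells missing. Over all tested assays, in the same order, 55 became 10, 7, 4, 3, 174 (of 400 tested) and 170. The 2 higher became 6 after quantile normalization, 6 with the global mean and 1 with trend and robust, where over all tested they were 9, 13 and 2. They became 0 when undetermined wells were missing, when only assays under 35 in all 6 were tested and when Ct values were capped at 35, as they did over all tested. The count at an adjusted p under 0.1, 0 in limma, was 19 when only assays under 35 in all 6 were tested, 7 when undetermined wells were missing and 1 with trend and robust, against 90 of 400, 25 and 4 over all tested. The median difference, -2.03, was -0.0803 after quantile normalization, 0.0851 with the global mean, 0.24 with only the 4-well assay as reference, 0.46 on raw Ct and -1.28 with all 3 control assays. The first 2 centre the assays by construction. With undetermined wells missing, well 340 reversed to -0.34 and well 486 to -0.16. With single sperm samples left out, lower assays ranged from 9 to 42, higher from 0 to 3, those at an adjusted p under 0.1 from 0 to 3 and the median difference from -2.56 to -1.58. Except where a value above shows it, the cause was not tested. No paired analysis was possible because no animal number occurs in both diets. Groups of 3 samples and 1 well an assay limit the precision.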

Other observations

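Ct values lay near whole cycles more often than an even spread gives. Within 0.15 cycles of a whole number, where an even spread would put 30% of values, lay 51 of the 71 mammary gland crossings of the sperm set at a Ct of 35 or later (71.8%). For all assays in the mammary gland it was 151 of 202 (74.8%) at 35 or later and 43.4% of 2329 values under 35. In sperm it was 37.8% of the 645 values of the sperm set under 35, and 38.3% of the 2875 of all assays. The limit of the rule itself lies at a whole cycle, and wells 359 and 536, on either side of it in the mammary gland, had 35.002 and 34.969 as the Ct that decided their place.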
